A study of Homo sapiens with 6 samples.

Results

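Integrins and the proteins that couple them to the cytoskeleton were followed at the transcript level in cells labelled as a human lung adenocarcinoma line. The set holds 38 genes, chosen by name from the 58302 genes of the deposited table, with earlier results of these data known. It comprises 8 integrin alpha subunits, 6 integrin beta subunits, 6 talin, kindlin and tensin genes, 4 linkers to actin, 3 genes of the integrin-linked kinase complex, 6 kinases and scaffolds, 3 genes of the zyxin group and 2 caveolins. Every member had a row in the table.

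RNA was sequenced from cells labelled A549, and part of the markers of that line given below go against the label. Treatment lasted 48 h, with S541 (compound 5n) at 1.0 µM in 3 libraries and its solvent DMSO in the other 3. No genetic change is stated for either group, and the labels do not say whether replicates were separate cultures, so p-values reflect only how far these libraries spread, and that spread may be technical.

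Integrins are heterodimers of an alpha and a beta subunit that bind matrix proteins such as collagen, laminin and fibronectin. Talin and the kindlins bind the cytoplasmic tail of the beta subunit, and vinculin, alpha-actinin and filamin tie the adhesion to actin filaments. The scaffold kinases FAK (*PTK2*) and SRC, with paxillin and p130Cas (*BCAR1*), carry the signal onward, and in epithelial lung tumour cells these assemblies serve attachment, spreading and migration.

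Total counts ranged from 13956648 to 15794403 in S541 libraries and from 14927663 to 17044139 in DMSO libraries. On the second principal component (21.4% of the variance), S541 replicate 3 at −20.5 and DMSO replicate 2 at −34.4 lay apart from the other 4 libraries. Of 10 epithelial and A549 markers, the keratins *KRT7*, *KRT8* and *KRT18* were abundant, and *KRT8*, *KRT18* and *ALDH3A1* fell. Others that are known as high in A549 were not. *ALDH1A1* was at 0 in 5 libraries and *AKR1B10* was at 0.688 to 0.840 CPM (counts scaled to library size) in S541 and 0.720 to 1.08 CPM in DMSO libraries. *CDH1* (E-cadherin) was at 0.491 to 0.626 CPM in S541 and 0.945 to 1.15 CPM in DMSO libraries. *KRT19* was at 0.771 to 1.565 CPM in S541 and 0.135 to 0.480 CPM in DMSO libraries. *ALDH3A1* was at 4.52 to 5.01 CPM in S541 and 7.68 to 8.37 CPM in DMSO libraries. *EPCAM* was at 8.98 to 11.7 CPM in S541 and 8.10 to 9.80 CPM in DMSO libraries, and *AKR1C1* at 13.39 to 16.35 and 14.28 to 47.86 CPM. The summed level of 7 fibroblast markers was 4.49 to 4.98 CPM in S541 and 6.65 to 9.36 CPM in DMSO libraries, with *LUM* at 0. Most of it was *PDGFRB*, which fell, with 3.01, 2.94 and 4.14 CPM in S541 libraries and 6.08, 8.40 and 5.20 CPM in DMSO libraries (log2 fold change −0.96, edgeR adjusted p = 0.0490), and its part in the results was not tested. The sum of 4 endothelial markers was 7.92 to 13.8 CPM in S541 and 11.3 to 11.5 CPM in DMSO libraries, mostly *CDH5*, with *KDR* at 0. The sum of 4 leukocyte markers was 2.00 to 2.52 CPM in S541 and 2.16 to 3.06 CPM in DMSO libraries, with *CD3E* at 0. The series' design text names the retina, and the photoreceptor marker *CRX* was at 0 in all 6 libraries.

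Among the members, transcripts of the collagen receptor subunit *ITGA2* and the laminin receptor subunit *ITGA6* rose 1.99-fold and 1.86-fold after S541. The adaptor *BCAR1* and the caveolin *CAV1* rose less, 1.41-fold and 1.38-fold. The tensin *TNS3* and the parvin *PARVA* fell to 0.581 and 0.556 of their DMSO level. A member was said to have risen or fallen where the adjusted p-value was under 0.05 in edgeR's quasi-likelihood test, with Benjamini-Hochberg adjustment across the whole table of tested genes. With 36 members tested, 4 rose and 2 fell (16.7%), while 8.19% of the 15847 tested genes changed, 4.02% upward and 4.17% downward. The members were chosen with earlier results of these data known, so their share is not read as a result about the set. *ITGA10* and *ITGA11* had 0 to 9 counts per library and did not pass the filter on low counts. Values of bulk RNA do not tell fewer cells with a transcript from less of it per cell.

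Over the 36 tested members, 24 log2 fold changes were above 0 and 12 below, with a median of 0.14, against a median of −0.0019 over all tested genes, of which 49.8% were above 0. The libraries of the groups did not overlap for 17 of the 36 (47.2%), and for 31.1% of all tested genes. Because of how the members were chosen, these shares and medians are not read as a result about the set either. In the authors' deposited table, *ITGA2*, *ITGA5*, *ITGA6*, *BCAR1*, *TNS3* and *PARVA* had a Q-value under 0.05, which 4.27% of its 28099 compared genes had. None of the 38 was among the 302 genes marked there as up or down.

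The start regions of the genes with the largest rises and of *TNS3* are shown to place the changed transcripts in the genome. They are RefSeq windows from 250 bases before to 50 bases after a gene start, on build GRCh38.p14 and 5′ to 3′ on the gene's strand, and capitals mark each GC box (GGGCGG on either strand), an element bound by SP1. Of several windows of a gene, the one nearest to the gene's start in the deposited locus is given. *PARVA* has no window in that table.
ITGA2 (chr5:52989102-52989401, plus strand): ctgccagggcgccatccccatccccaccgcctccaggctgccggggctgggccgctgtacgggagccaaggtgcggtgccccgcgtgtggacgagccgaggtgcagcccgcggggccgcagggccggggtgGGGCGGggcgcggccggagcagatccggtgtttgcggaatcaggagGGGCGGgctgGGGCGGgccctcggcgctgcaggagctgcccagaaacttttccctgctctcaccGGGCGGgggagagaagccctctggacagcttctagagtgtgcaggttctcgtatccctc
ITGA6 (chr2:172427086-172427385, plus strand): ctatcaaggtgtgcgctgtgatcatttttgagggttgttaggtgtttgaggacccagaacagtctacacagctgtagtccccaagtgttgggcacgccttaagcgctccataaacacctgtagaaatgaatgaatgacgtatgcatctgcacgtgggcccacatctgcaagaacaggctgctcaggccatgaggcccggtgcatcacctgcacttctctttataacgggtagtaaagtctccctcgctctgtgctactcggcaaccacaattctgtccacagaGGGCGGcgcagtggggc
TNS3 (chr7:47582537-47582836, minus strand): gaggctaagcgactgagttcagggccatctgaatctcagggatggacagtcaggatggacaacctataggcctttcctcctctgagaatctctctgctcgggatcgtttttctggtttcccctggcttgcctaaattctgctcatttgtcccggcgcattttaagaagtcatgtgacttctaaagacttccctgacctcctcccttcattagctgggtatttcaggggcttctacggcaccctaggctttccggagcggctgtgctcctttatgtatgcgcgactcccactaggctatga
The *ITGA2* window held 4 GC boxes and had 72.7% G and C bases. The *ITGA6* window held 1 and had 53.0%, and the *TNS3* window held 0 and had 51.7%, though another of the 3 *TNS3* windows held one. At least 1 GC box stood in 45% of all 35116 windows and in 38 of the 61 member windows (62.3%), which belong to 30 of the 38 members.

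Some members that did not pass the test shared the CArG box, the element of serum response factor, which controls many actin cytoskeleton genes. It stood in at least 1 window of 5 of the 30 members (16.7%) and of 1.6% of all 27305 genes with a window. Per window, it stood in 8.2% of the 61 member windows and 1.29% of all 35116 windows. Any window of a gene counted here, also one away from the start of the deposited locus. The *TES* stretch below begins at 116222703, while the deposited locus begins at 116210493. On the minus strand, the *ITGB6* stretch ends at 160200357 and the deposited locus at 160271888. None of the 5 genes was among the 6 that changed. These stretches show the box in capitals with up to 25 bases on each side, on build GRCh38.p14.
ACTN1 (chr14:68977703-68977762, minus strand): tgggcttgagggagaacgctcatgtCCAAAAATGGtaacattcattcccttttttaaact
FLNA (chrX:154374694-154374753, minus strand): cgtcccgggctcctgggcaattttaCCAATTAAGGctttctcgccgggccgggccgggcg
ITGB6 (chr2:160200298-160200357, minus strand): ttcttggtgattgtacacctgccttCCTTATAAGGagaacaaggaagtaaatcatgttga
TES (chr7:116222703-116222745, plus strand): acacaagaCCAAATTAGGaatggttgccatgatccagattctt
TGFB1I1 (chr16:31473129-31473188, plus strand): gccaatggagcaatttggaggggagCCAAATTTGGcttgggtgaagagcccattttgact
The AP-1 element (TGANTCA, both strands) stood in a window of 4 members with an entry (13.3%, against 9.37% of all genes), of which *BCAR1* was the one that rose. The TEAD element (GGAATG, both strands) stood in 8 (26.7%, against 16.7%), none of them a member that changed. Members have more windows per gene (61 for 30 members) than all genes have (35116 for 27305), which raises their shares per gene. Per window, AP-1 stood in 6.56% of member windows and 7.71% of all windows. TEAD stood in 14.8% of member windows and 14% of all windows. The GC box, AP-1 and TEAD letters were searched independently and can overlap, and a match is a description of letters, not of binding.

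The alpha subunits, which together with the beta subunit set the ligand that an integrin binds, held the largest rises. *ITGA2* (ENSG00000164171, chromosome 5, 52989326 to 53094779), the alpha subunit of the collagen receptor with beta-1, had 98.7, 85.5 and 76.3 CPM in S541 replicates 1 to 3, against 55.5, 27.3 and 48.1 CPM in DMSO replicates 1 to 3. The groups did not overlap, and DMSO replicate 2 lay well below the other DMSO libraries. Means were 86.8 ± 11.3 CPM in S541 and 43.6 ± 14.6 CPM in DMSO (SD, n = 3 each), and the log2 fold change was 0.99 (SE 0.24, edgeR adjusted p = 0.0455). Without DMSO replicate 2 it was 0.74 (edgeR adjusted p = 0.0211). Among the fits that omit libraries or change the filter, the call of *ITGA2* ended without S541 replicate 1 (adjusted p = 0.136), 2 (0.127) or 3 (0.0852), without DMSO replicate 3 (0.109), and when low-count genes were kept (0.0728).

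*ITGA6* (ENSG00000091409, chromosome 2, 172427354 to 172506282), which pairs with beta-4 in hemidesmosomes and with beta-1 as a laminin receptor, had 68.1, 67.9 and 60.4 CPM in S541 replicates 1 to 3, against 40.5, 27.3 and 37.9 CPM in DMSO replicates 1 to 3. The S541 libraries were close together and all above the DMSO libraries. Means were 65.5 ± 4.38 CPM in S541 and 35.2 ± 6.98 CPM in DMSO (SD, n = 3 each), with a log2 fold change of 0.90 (SE 0.15, edgeR adjusted p = 0.0148). Its call ended without S541 replicate 1 (adjusted p = 0.0642) or S541 replicate 2 (0.0654). It stayed in the other 4 fits with a library left out, being at the threshold without DMSO replicate 3 (0.05).

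The other alpha subunits did not pass. *ITGA5*, the fibronectin receptor subunit, had 238, 180 and 232 CPM in S541 libraries, against 161, 125 and 164 CPM in DMSO libraries, a log2 fold change of 0.53 (SE 0.14, edgeR adjusted p = 0.0625). Its groups did not overlap, and DESeq2 was among the settings where it passed (adjusted p = 0.0113, range over all other settings 0.0113 to 0.178). *ITGA3*, a laminin receptor subunit, had a log2 fold change of 0.28 (SE 0.11, edgeR adjusted p = 0.149), with every S541 library above every DMSO library. *ITGAV*, the subunit of receptors for vitronectin and latent TGF-beta, had −0.18 (SE 0.18) and *ITGA1*, a second collagen receptor subunit, −0.31 (SE 0.22), each with overlapping groups. *ITGA10* had 4, 8 and 9 counts in S541 libraries and 5, 3 and 4 in DMSO libraries. *ITGA11*, like *ITGA10* a collagen receptor subunit, had 2, 4 and 4 counts in S541 libraries and 0, 2 and 5 in DMSO libraries.

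*ITGA1* and *ITGA2* lie next to each other on chromosome 5, 30.1 kb apart, and both bind collagen with beta-1. The ratio of *ITGA2* to *ITGA1* FPKM (fragments scaled to gene length and library size) was 4.41, 4.26 and 4.76 in S541 libraries and 1.89, 1.65 and 1.81 in DMSO libraries. Each S541 ratio was above each DMSO ratio, and the ratio varied less within a group than either gene did. Other gene models on the same strand, among them *PELO*, overlap 5.63% of the annotated exon bases of *ITGA1*, so part of its counts may belong to those. The log2 ratio differed by 1.33 between the groups (2-sided exact permutation p = 0.1, the smallest that 3 against 3 libraries can give, and 0.117 adjusted over the 7 gene pairs compared). These pairs were chosen after the values were seen, and the first gene of each pair is a member that had passed the test. The permutation p-values, here and for the other pairs below, are therefore no separate support. Each p of 0.1 among them is also 0.117 when adjusted.

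No integrin beta subunit passed in edgeR, DESeq2 or limma-voom, and 2 of 6 had an unadjusted p under 0.05 in edgeR, where 24.8% of all tested genes had. Of all tested genes, edgeR called 8.19%, DESeq2 11.2% and limma-voom 7.91%. *ITGB1*, the partner of most alpha subunits measured here, had 489, 510 and 523 CPM in S541 libraries, against 455, 394 and 358 CPM in DMSO libraries. Its log2 fold change was 0.33 (SE 0.10, edgeR adjusted p = 0.0825), without overlap between the groups. *ITGB4*, the beta subunit of hemidesmosomes, had −0.15 (SE 0.08) and *ITGB5*, which pairs with alpha-V, −0.04 (SE 0.08). The less abundant alpha-V partners *ITGB8*, *ITGB6* and *ITGB3* had −0.65 (SE 0.25, adjusted p = 0.149), −0.53 (SE 0.32, adjusted p = 0.345) and −0.26 (SE 0.24, adjusted p = 0.561). *ITGB8* had 4.35, 8.07 and 7.76 CPM in S541 libraries and 11.5, 8.82 and 11.5 CPM in DMSO libraries, and its groups did not overlap. Other gene models on the same strand overlap 51.6% of the annotated exon bases of *ITGB3* and 20.6% of those of *ITGB6*, so part of their counts may belong to those models.

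Within the integrin family the composition of transcripts differed between the groups. Per length, the 8 alpha subunits summed to 51.0 to 63.2 FPKM in S541 libraries and 34.7 to 45.8 FPKM in DMSO libraries. Of this sum, *ITGA2* made up 17.6, 18.7 and 14.6% in S541 libraries and 13.3, 8.50 and 12% in DMSO libraries. *ITGA6* made up 10.8 ± 1.49% in S541 and 7.74 ± 0.526% in DMSO libraries, and *ITGAV* 8.67 ± 1.08% in S541 and 13.3 ± 0.483% in DMSO libraries (SD, n = 3 each). *ITGAV* took a smaller share in each S541 library than in any DMSO library while its own level did not pass the test. *ITGA5* and *ITGA3* were the largest alpha subunits in both groups, at 29.9 ± 1.74% and 29.7 ± 2.40% in S541 and 27.9 ± 0.861% and 33.4 ± 4.63% in DMSO libraries, and their shares overlapped in S541 libraries, while each *ITGA3* share was above each *ITGA5* share in DMSO libraries. Among the beta subunits, *ITGB1* made up 55.2, 58.7 and 56.7% of the FPKM sum in S541 libraries and 51.8, 48.4 and 47.1% in DMSO libraries. These shares are parts of a sum, so a larger share of one subunit lowers the others, and they are given without a test.

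**Figure D1:**
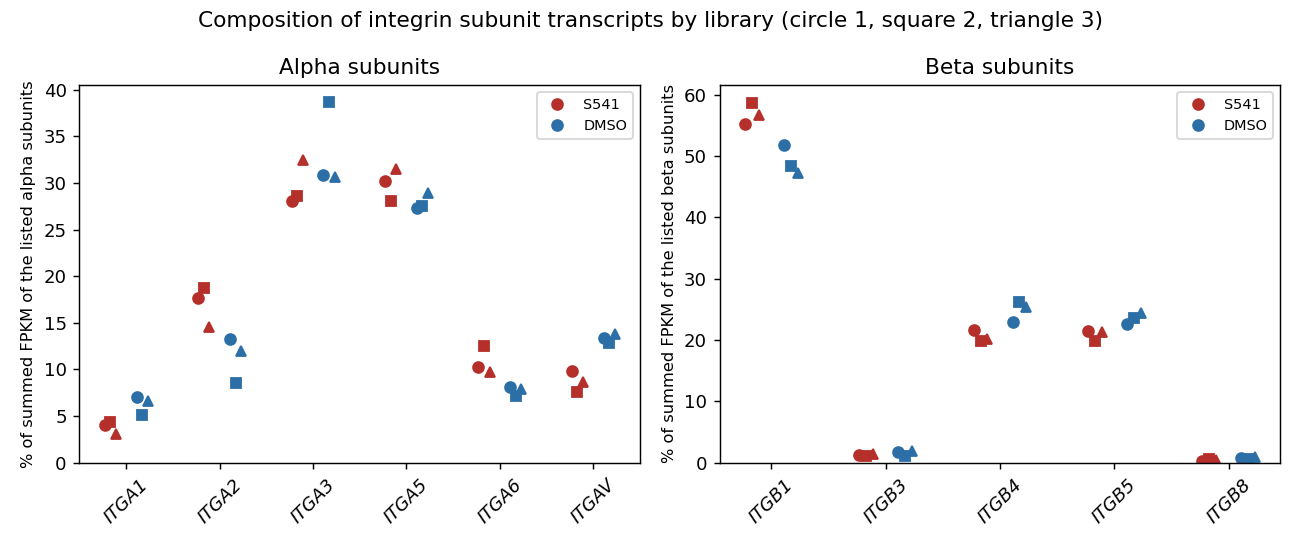
Share of each subunit in the summed FPKM of the listed alpha (left) or beta (right) integrin subunits, in percent, for each S541 and DMSO library, with subunits averaging under 0.5% in both groups left out. *ITGA2* and *ITGA6* sit higher and *ITGAV* and *ITGA1* lower in all 3 S541 libraries than in the DMSO libraries, and *ITGB1* is at 55.2 to 58.7% in S541 libraries and at 47.1 to 51.8% in DMSO libraries.

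The ratio of *ITGA6* to its partner *ITGB4* in FPKM was 0.351, 0.389 and 0.322 in S541 libraries and 0.198, 0.127 and 0.194 in DMSO libraries, a difference of 1.06 in the log2 ratio (2-sided exact permutation p = 0.1). The ratio of *ITGA2* to its partner *ITGB1* was 0.237, 0.197 and 0.172 in S541 libraries and 0.143, 0.0814 and 0.158 in DMSO libraries, a difference of 0.71 (2-sided exact permutation p = 0.1). In both pairs the alpha transcript was the scarcer one in all 6 libraries.

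Among the proteins at the integrin tail, *TNS3* fell. *TNS3* (ENSG00000136205, chromosome 7, 47275154 to 47582558) encodes tensin-3, which binds the beta tail and actin. It had 169, 172 and 192 CPM in S541 libraries, against 295, 310 and 311 CPM in DMSO libraries. The gap between the groups was wider than the spread in either. Means were 177 ± 12.4 CPM in S541 and 305 ± 9.22 CPM in DMSO (SD, n = 3 each), with a log2 fold change of −0.78 (SE 0.08, edgeR adjusted p = 0.00391). It passed without any single library (adjusted p from 0.00616 to 0.025) and under each other setting tried.

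*TNS4* encodes a short tensin without the actin-binding part, and in human mammary cells given EGF it is known to replace tensin-3. Its level was 15.1, 13.3 and 16.0 CPM in S541 libraries and 13.6, 14 and 12.1 CPM in DMSO libraries, with overlapping groups and a log2 fold change of 0.16 (SE 0.13, edgeR adjusted p = 0.511). The ratio of *TNS3* to *TNS4* in FPKM was 3.56, 4.14 and 3.83 in S541 libraries and 6.90, 7.08 and 8.22 in DMSO libraries, a difference of −0.94 in the log2 ratio (2-sided exact permutation p = 0.1). The third tensin measured, *TNS1*, was rare, at 4.68 to 8.01 CPM over all libraries, with 0.25 (SE 0.20).

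Talin-1 and the kindlins did not pass. *TLN1*, which switches integrins to their active form, had 258, 251 and 274 CPM in S541 libraries and 236, 286 and 252 CPM in DMSO libraries, with a log2 fold change of 0.02 (SE 0.09, edgeR adjusted p = 0.940), whose sign turned without S541 replicate 3 (−0.021) or DMSO replicate 1 (−0.046). Kindlin-2 (*FERMT2*) had 108, 121 and 96.7 CPM in S541 libraries and 68.2, 79.1 and 92.6 CPM in DMSO libraries, a log2 fold change of 0.44 (SE 0.13, edgeR adjusted p = 0.0866) without overlap. Kindlin-1 (*FERMT1*) had 0.20 (SE 0.16) with overlap.

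In the complex of integrin-linked kinase, PINCH-1 and parvin, which bridges the beta tail to actin, the parvin transcript *PARVA* fell. *PARVA* (ENSG00000197702, chromosome 11, 12377185 to 12530801) had 56.2, 57.3 and 59.1 CPM in S541 libraries, against 91.5, 117 and 102 CPM in DMSO libraries. The S541 libraries were close together and far below the DMSO libraries. Means were 57.5 ± 1.51 CPM in S541 and 104 ± 12.9 CPM in DMSO (SD, n = 3 each), with a log2 fold change of −0.85 (SE 0.11, edgeR adjusted p = 0.00623), and the call held without any single library (0.00715 to 0.0372). Another parvin gene, *PARVB*, is not a member and was named after its values were seen. Its means were 36.3 CPM in S541 and 37.5 CPM in DMSO libraries, and it did not pass (log2 fold change −0.05, SE 0.10, edgeR adjusted p = 0.807).

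*ILK*, the scaffold that *PARVA* binds, had 163, 157 and 176 CPM in S541 libraries and 173, 198 and 169 CPM in DMSO libraries, with a log2 fold change of −0.12 (SE 0.09, edgeR adjusted p = 0.474). Genes on the other strand cover 78.5% of the *ILK* exon bases, and no source used here gives whether counting used strand. The ratio of *PARVA* to *ILK* in FPKM was 0.311, 0.329 and 0.303 in S541 libraries and 0.477, 0.535 and 0.544 in DMSO libraries, a difference of −0.72 in the log2 ratio (2-sided exact permutation p = 0.1). The height of this ratio depends on the lengths behind the FPKM. These are 9 kb for *PARVA* and 8.12 kb for *ILK*, against annotated exon lengths of 12.85 and 3.484 kb. PINCH-1 (*LIMS1*) had 61.9, 65.3 and 52.9 CPM in S541 libraries and 60.3, 19.4 and 70.8 CPM in DMSO libraries. DMSO replicate 2 alone was low, and the log2 fold change of 0.26 (SE 0.39) became −0.13 without it. Of the 31-base windows in *LIMS1* transcripts, 27.8% also occur in other genes, mainly *LIMS4*, so its counts are uncertain.

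**Figure D2:**
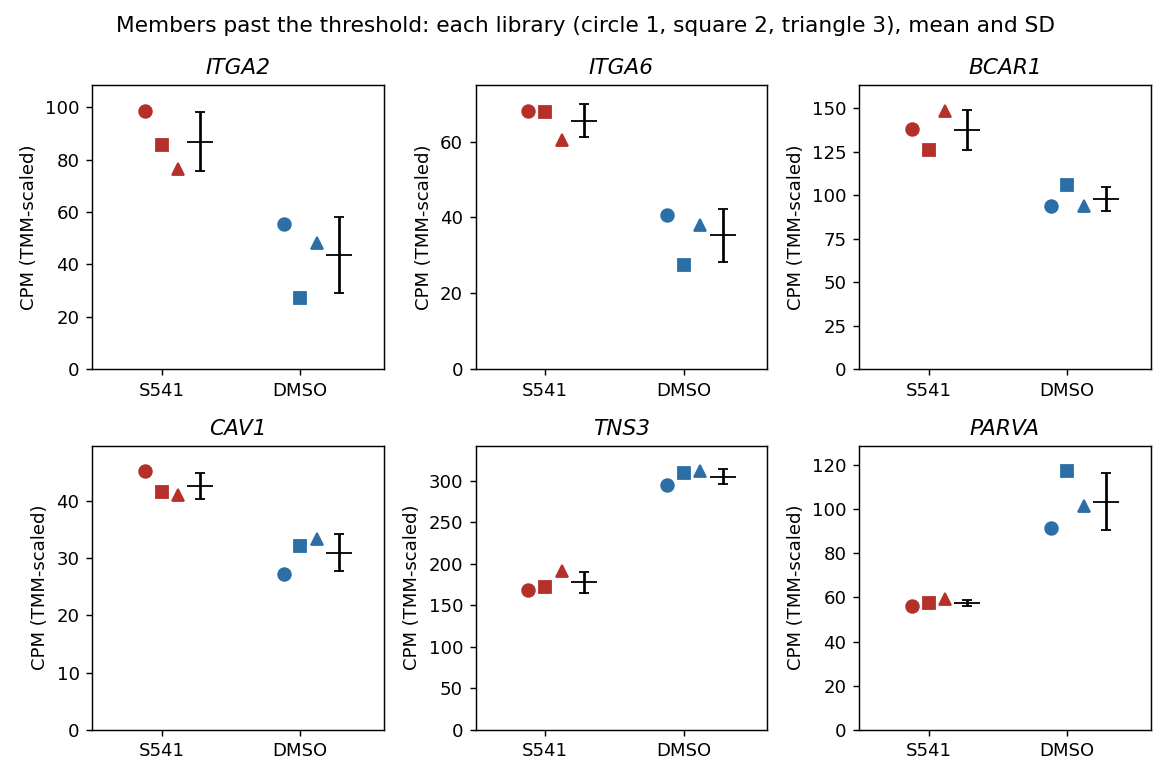
Level in CPM, scaled by TMM, of the 6 members that passed the test, with each library as a point and the mean ± SD beside the points (n = 3 each). *ITGA2*, *ITGA6*, *BCAR1* and *CAV1* are higher in all 3 S541 libraries, *TNS3* and *PARVA* lower, and DMSO replicate 2 is the lowest library for *ITGA2* at 27.3 CPM and for *ITGA6* at 27.3 CPM.

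Of the kinases and scaffolds, *BCAR1* rose. *BCAR1* (ENSG00000050820, chromosome 16, 75228187 to 75268053) encodes p130Cas, a docking protein phosphorylated by SRC. It had 138, 126 and 149 CPM in S541 libraries, against 94.0, 106 and 93.6 CPM in DMSO libraries, and the groups did not overlap. Means were 137 ± 11.3 CPM in S541 and 97.8 ± 6.86 CPM in DMSO (SD, n = 3 each), with a log2 fold change of 0.49 (SE 0.10, edgeR adjusted p = 0.0236). Among the fits that omit 1 library, the call ended without S541 replicate 1 (0.082) or 3 (0.0722) and without DMSO replicate 1 (0.0747) or 3 (0.0906). Other gene models cover 8.71% of its exon bases, and 10.1% of its 31-base windows also occur in other genes, so its counts are less certain.

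*NEDD9*, a p130Cas relative, had 14.2, 13.7 and 12.5 CPM in S541 libraries and 13.4, 22.3 and 14.5 CPM in DMSO libraries, with a log2 fold change of −0.32 (SE 0.20, edgeR adjusted p = 0.383), DMSO replicate 2 being the high one. *PTK2* (FAK) had 0.09 (SE 0.12), *SRC* 0.15 (SE 0.09) and paxillin (*PXN*) 0.12 (SE 0.14). The ratio of *BCAR1* to *PTK2* in FPKM was 2.07, 2.00 and 2.95 in S541 libraries and 1.55, 1.95 and 1.71 in DMSO libraries, a difference of 0.41 in the log2 ratio (2-sided exact permutation p = 0.1). The paxillin relative *TGFB1I1* (Hic-5) had 28.4, 24.5 and 26.2 CPM in S541 libraries and 31.3, 35.6 and 28.9 CPM in DMSO libraries, with −0.28 (SE 0.12, edgeR adjusted p = 0.196) and no overlap.

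The linkers to actin, which include the 2 most abundant members *FLNA* and *ACTN4*, did not pass. In edgeR, DESeq2 and limma-voom, 0 of 4 had an adjusted p under 0.05, where 8.19%, 11.2% and 7.91% of all tested genes had. In edgeR, 0 had an unadjusted p under 0.05, where 24.8% of all tested genes had. At those shares, 0 of 4 is not read as a result about the linkers. Filamin A (*FLNA*), which crosslinks actin, had 146 ± 4.22 FPKM in S541 and 125 ± 9.72 FPKM in DMSO (SD, n = 3 each), a log2 fold change of 0.19 (SE 0.08, edgeR adjusted p = 0.209) without overlap. Alpha-actinin-4 (*ACTN4*) had 0.13 (SE 0.11) and alpha-actinin-1 (*ACTN1*) 0.17 (SE 0.09). Vinculin (*VCL*) varied widely between replicates, with 348, 534 and 360 CPM in S541 libraries and 424, 281 and 453 CPM in DMSO libraries. Its log2 fold change of 0.10 (SE 0.22) became −0.12 without S541 replicate 2 and −0.08 without DMSO replicate 2.

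The zyxin group, LIM and EVH1 proteins that act on actin at adhesions under tension, held 0 of 3 members past the threshold in the same 3 tools. In edgeR, 0 had an unadjusted p under 0.05. At the shares of all tested genes given for the linkers, 0 of 3 is not read as a result about the group. *ZYX* had a log2 fold change of 0.21 (SE 0.15), *TES* 0.18 (SE 0.11) and *VASP* 0.13 (SE 0.12). *TES* had 25.7, 22.1 and 21.7 CPM in S541 libraries, against 20.4, 20.3 and 20.7 CPM in DMSO libraries, a small gap without overlap.

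The caveolins, membrane proteins of caveolae that bind integrin complexes, were both higher in each S541 library than in any DMSO library. *CAV1* (ENSG00000105974, chromosome 7, 116524785 to 116561184) had 45.2, 41.7 and 41.0 CPM in S541 libraries, against 27.3, 32.2 and 33.4 CPM in DMSO libraries. Means were 42.6 ± 2.25 CPM in S541 and 31 ± 3.21 CPM in DMSO (SD, n = 3 each), with a log2 fold change of 0.46 (SE 0.11, edgeR adjusted p = 0.0446). No fit that omitted a library kept this call, over 6 such fits (adjusted p from 0.0559 to 0.136). *CAV2*, its partner, 16.2 kb away on the same chromosome, had 27.3, 27.9 and 26.0 CPM in S541 libraries and 23.0, 22.6 and 14.3 CPM in DMSO libraries, with a log2 fold change of 0.44 (SE 0.18, edgeR adjusted p = 0.182). The *CAV1* to *CAV2* ratio did not separate the groups (difference −0.005 in the log2 ratio, 2-sided exact permutation p = 1). *TES* lies 28.6 kb from *CAV2* on the other side.

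**Figure D3:**
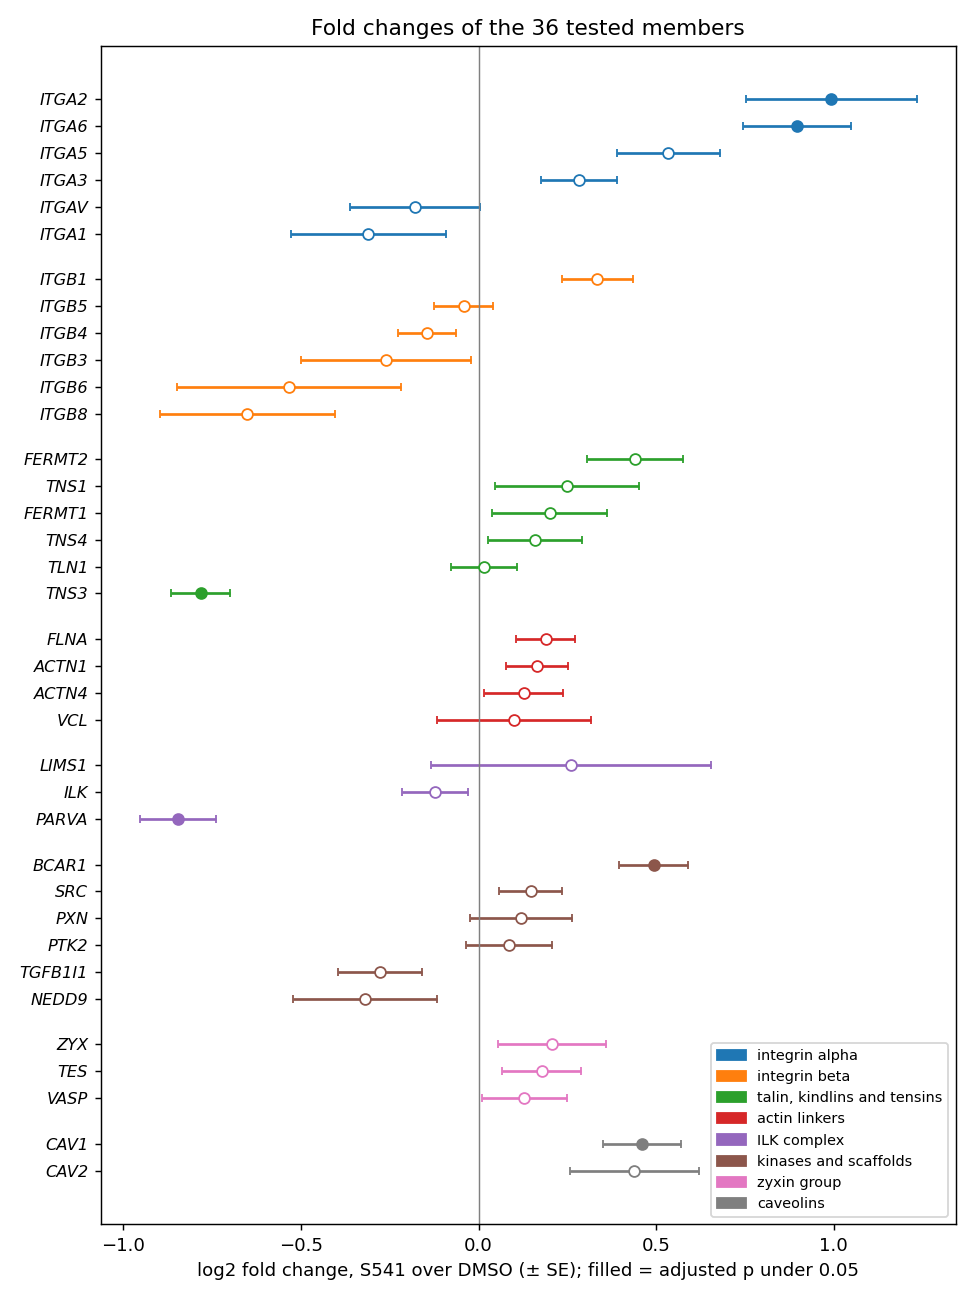
Log2 fold change of S541 over DMSO for each of the 36 tested members, with its SE, grouped by role, where filled points passed the test. The alpha subunits spread from −0.31 for *ITGA1* to 0.99 for *ITGA2*, and *TNS3* and *PARVA* lie apart at −0.78 and −0.85.

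Per length, member levels spanned several orders of magnitude. *FLNA* and *ACTN4* led with 146 ± 4.22 and 146 ± 11.1 FPKM in S541 and 125 ± 9.72 and 131 ± 16.1 FPKM in DMSO libraries, and their order was not separated beyond the spread. *ITGB1* followed with 48.1 ± 0.891 FPKM in S541 and 37.4 ± 4.6 FPKM in DMSO (SD, n = 3 each), above every other integrin subunit. Next came *VCL*, *TLN1* and *ILK* at 20.5 to 31.5 FPKM in S541 and 21.7 to 28.9 FPKM in DMSO, and their ranges over DMSO libraries overlapped. In S541 libraries *VCL*, at 26.85 to 40.8 FPKM, lay above *TLN1* at 21.56 to 23.02 FPKM, which nearly met *ILK* at 19.58 to 21.42 FPKM. In order of mean FPKM, *TNS3* stood at rank 15 of 38 in S541 and rank 8 in DMSO libraries. *ITGA2* stood at rank 16 in S541 and 19 in DMSO, and *ITGA6* at rank 18 in S541 and 23 in DMSO. *ITGB8*, *TNS1* and *ITGB6* were the lowest of the tested members, at 0.381, 0.269 and 0.0947 FPKM in S541 and 0.591, 0.223 and 0.134 FPKM in DMSO.

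**Figure D4:**
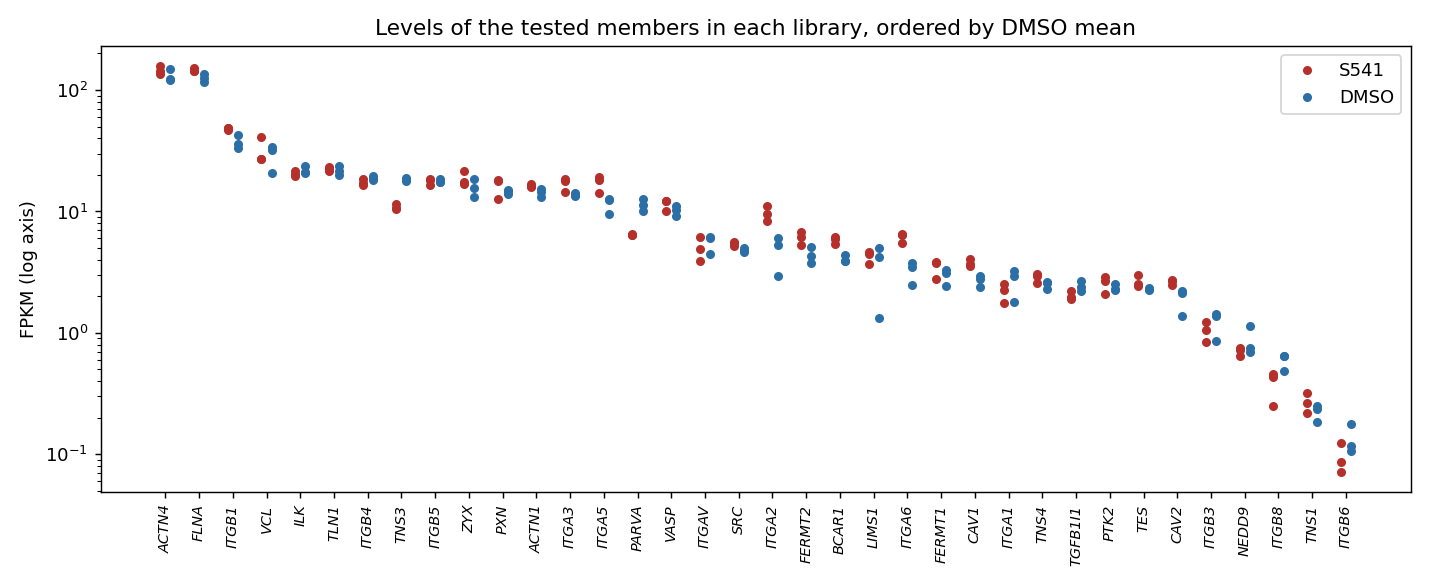
FPKM of the 36 tested members in each library on a log axis, ordered by the DMSO mean, with S541 and DMSO libraries side by side. Levels run from 146 FPKM for *FLNA* to 0.0947 FPKM for *ITGB6* in S541 libraries, and the S541 points of *TNS3*, *PARVA*, *ITGA2* and *ITGA6* stand clear of their DMSO points.

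Of the 13 remaining integrin genes, 7 were tested. *ITGAE*, which pairs with beta-7, was per length the most abundant of these, at 4.33 ± 0.201 FPKM in S541 and 3.8 ± 0.126 FPKM in DMSO libraries (SD, n = 3 each), and did not pass (named after its values were seen). The rare subunits *ITGAX* and *ITGAD* rose, but with so few DMSO counts they passed the filter on low counts only through the S541 libraries, so the number that rose is not read against all tested genes. *ITGAX* had 1.26, 1.13 and 0.776 CPM in S541 libraries and 0.203, 0.240 and 0.121 CPM in DMSO libraries (log2 fold change 2.44, SE 0.43, edgeR adjusted p = 0.0164). *ITGAD*, a related subunit, had 1.89, 1.44 and 1.81 CPM in S541 libraries and 0.203, 0.540 and 0.665 CPM in DMSO libraries (1.83, SE 0.39, edgeR adjusted p = 0.0303). Of the leukocyte markers, *CD14* had 0.841, 0.563 and 0.840 CPM in S541 libraries and 1.08, 0.480 and 0.181 CPM in DMSO libraries, and *PTPRC* was at 0.210, 0 and 0 CPM in S541 libraries and at 0 in DMSO libraries. The call of *ITGAD* ended with each library left out (adjusted p from 0.0503 to 0.102), and *ITGAX* kept its call in 2 of these 6 fits (0.0292 to 0.0707).

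Among 66 further adhesion adaptors and regulators, 62 were tested, 4 rose and 3 fell (11.3%, against 8.19% of all tested genes). The median was −0.04 on the log2 scale. The LIM protein *PDLIM5* (0.98, SE 0.15), the urokinase receptor *PLAUR* (0.84, SE 0.11) and the proteoglycan *SDC4* (0.57, SE 0.08), a co-receptor at focal adhesions, rose, and the zyxin relative *AJUBA* (−0.87, SE 0.14) fell. *AJUBA* had 100, 109 and 119 CPM in S541 libraries and 204, 235 and 161 CPM in DMSO libraries, and lost its call in 2 of the 6 fits that omit 1 library (adjusted p up to 0.0644), while the other 3 kept theirs.

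Of 36 genes of actomyosin and its regulation, 34 were tested, 2 rose and 2 fell (11.8%, against 8.19% of all tested genes). The median was −0.01. Myosin light chain kinase (*MYLK*), which activates myosin II, fell to 101 ± 3.05 CPM in S541 libraries, against 212 ± 17.1 CPM in DMSO libraries (SD, n = 3 each), a log2 fold change of −1.07 (SE 0.09, edgeR adjusted p = 0.00164) that passed without any single library. Cofilin (*CFL1*) fell (−0.57, SE 0.13), and the myosin heavy chain *MYH9* (0.31, SE 0.07) and *SRF*, which binds the CArG box shown above, rose (0.36, SE 0.09, edgeR adjusted p = 0.0498). The last 3 lost their calls in 5 or 6 of the 6 fits that omit 1 library, with adjusted p up to 0.131 for *CFL1*, 0.126 for *MYH9* and 0.139 for *SRF*.

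Of 34 integrin ligands, 27 were tested, 7 rose and 3 fell (37%, against 8.19% of all tested genes), with a median of 0.10. This list, like the other lists of further genes, was chosen with earlier results of these data known. None of their shares is therefore read as a result about the genes listed. The laminin chain *LAMA4* (1.34, SE 0.16), the collagen chain *COL6A2* (1.38, SE 0.26) and thrombospondin-1 (*THBS1*, 1.03, SE 0.15) rose. Genes were named by size of change, and the 3 that fell are not among those named. *LAMA4* was at a mean of 7.7 CPM in S541 and 3.0 CPM in DMSO libraries, and *COL6A2* at 4.3 and 1.6 CPM. *THBS1* had 30.8, 36.1 and 30.8 CPM in S541 libraries and 12.9, 18.0 and 16.8 CPM in DMSO libraries. *COL6A2* lost its call in 4 of the 6 fits that omit 1 library (adjusted p up to 0.0724), and *LAMA4* and *THBS1* kept theirs. Of 8 tested genes of caveolae, 1 passed (12.5%, against 8.19% of all tested genes). It was *EHD4*, an ATPase that shapes membranes, which rose (0.46, SE 0.10, edgeR adjusted p = 0.0353), with the call kept in 1 of those 6 fits (up to 0.124).

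**Figure D5:**
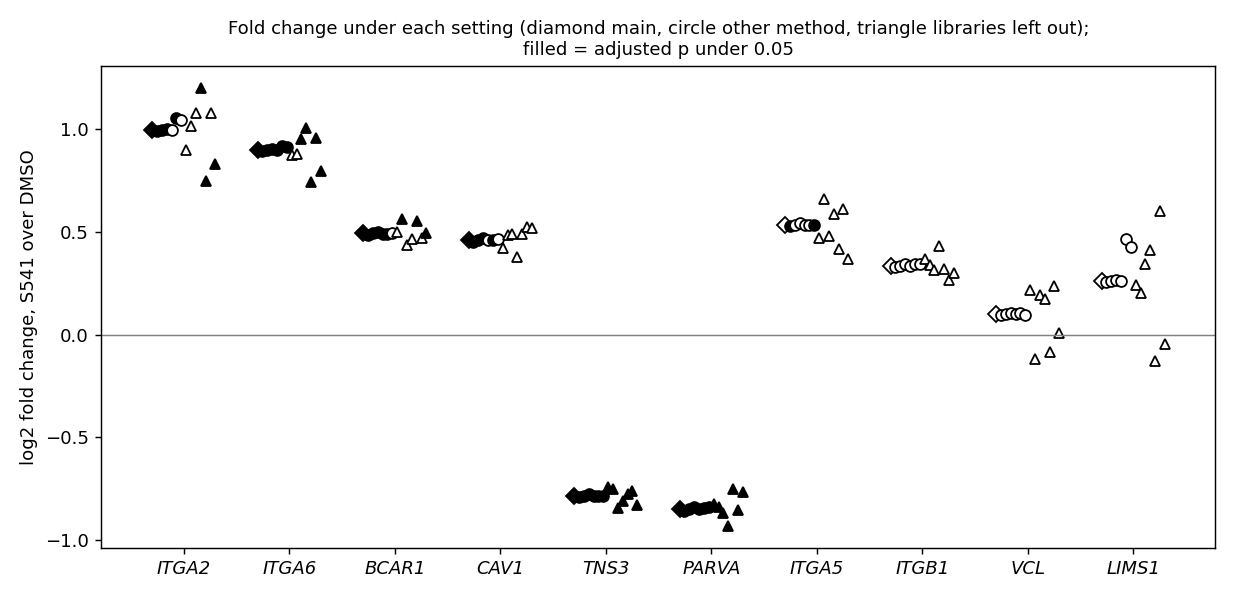
Log2 fold change of S541 over DMSO for the 6 members that passed and for *ITGA5*, *ITGB1*, *VCL* and *LIMS1*, under the main setting (diamond), other methods (circles) and with libraries left out (triangles), filled where the adjusted p was under 0.05. *TNS3* and *PARVA* are filled throughout, *CAV1* is open at all triangles, and *VCL* and *LIMS1* cross 0.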

How the data were processed

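RNA from 6 libraries, 3 given S541 and 3 given DMSO, was sequenced. The authors deposited 1 table with raw counts and FPKM per gene and library and, from their own comparison, log2 fold changes, p-values and Q-values. The submitters' processing notes name hg38 and edgeR. Aligner, counter and use of strand: not given in the sources used here. FPKM were used only for levels between genes and for ratios, and their implied gene lengths (5.02 to 31.1 kb) exceed the GENCODE 29 exon length in 37 of 38 members. The excess differs between genes, so levels, shares, ranks and ratios between genes depend on these lengths. The difference of a log2 ratio between the groups does not.

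Deposited counts were tested with edgeR 4.0.16 (TMM scaling, filterByExpr, quasi-likelihood, 2-sided) in R 4.3.3, with Benjamini-Hochberg adjustment over all 15847 tested genes and a threshold of 0.05, after a check on simulated data. CPM are TMM-scaled. SE is the log2 fold change over the root of F. DESeq2 1.42.0, limma 3.58.1 (voom), other scalings, no filter, a replicate block and left-out libraries were alternatives. The members and lists were chosen with earlier results of these data known. All members are named, with up to 4 called genes of at least 1 CPM in the higher group per companion list, by size of change. *ITGAE*, *TNS2* and *PARVB* were named besides these, after their values were seen. Cell type markers are named from their own list. The 7 gene pairs were chosen after their values were seen. Some listed genes are not reported here.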

Additional observations from a re-analysis of the deposited data

How the results depend on the processing

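All 36 tested members kept the direction of their log2 fold change under the other scalings, DESeq2, limma-voom, no filter and the replicate block. With no filter on low counts, 753 genes changed, against 1298, and 2 members rose. Same-numbered libraries correlated at −0.0811 to 0.104 in their deviations from the group means, 1 of 3 pairs over 0.1, and 2 of 6 libraries correlated best with their own number, so the numbers were not taken as pairs. With the replicate block, 392 genes changed, 2 members fell, and the 2 that rose were *ITGA6* (adjusted p = 0.0436, edgeR) and *ITGA5* (0.0497), while *ITGA2* (0.0532), *BCAR1* (0.0902) and *CAV1* (0.133) did not pass. Leaving out 1 library gave 349 to 1330 changed genes and 0 to 3 members that rose, with 2 that fell each time. Without DMSO replicate 2 and S541 replicate 3, an alternative chosen after seeing the data, 1020 genes changed and 3 members rose. With libraries left out, singly or both of those together, 5 members reversed, and their log2 fold changes ranged as follows. *ITGB5* ran from −0.078 to 0.018 (positive without S541 replicate 2), *TLN1* from −0.046 without DMSO replicate 1 to 0.094 (−0.021 without S541 replicate 3), *VCL* from −0.12 without S541 replicate 2 to 0.24 (−0.084 without DMSO replicate 2), *LIMS1* from −0.13 without DMSO replicate 2 to 0.60 (−0.044 without both) and *TNS1* from −0.028 without both to 0.39. The cause was not tested. With 3 libraries a group, small changes of members at a few CPM could not be resolved.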
